A study of Sus scrofa with 6 samples.

Results

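Heat shock proteins and their DNAJ cochaperones were read in longissimus dorsi, a long back muscle, from 6 healthy female Tibetan pigs. Members were all genes of the table whose pig symbol starts with HSPA, HSPB, HSPD, HSPE, HSPH, HSP90 or DNAJ, which gave 53 of 25322 gene IDs, 33 DNAJ genes and 20 HSP genes. The high altitude group held 3 Tibetan pigs that ranged freely on the highland, where altitude averaged 4000 m. The low altitude group held 3 Tibetan pigs kept with daily feeding on the Chengdu plain (500 m on average), descended from pigs that had lived there for generations. Place, feeding, housing and ancestry thus changed along with altitude and cannot be told apart from it, and the labels state neither age nor time of day at sampling.

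Chaperones bind proteins that are unfolded or only partly folded and keep them from clumping until they reach their shape or are removed. HSP70 proteins do this in cycles of ATP hydrolysis, which DNAJ proteins start and which HSP110 proteins and other exchange factors reset, while HSP90 acts late on kinases and steroid receptors. Small heat shock proteins hold clients without ATP, and in muscle several of them sit at the Z-disc and along the sarcomere. The endoplasmic reticulum and the mitochondria have sets of their own. When unfolded protein builds up in the cytosol the factor HSF1 induces the cytosolic genes, and in the reticulum the factors XBP1 and ATF6 induce the reticulum genes.

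RNA abundance was given as FPKM, fragments scaled to gene length and library size, so levels can be compared between genes of different length. The FPKM total per library lay between 506611 and 571855, and relative depth, read from the spacing of low values, between 0.870 and 1.19, with high altitude library 3 the deepest. Absolute depth is unknown, so no counting interval can be given. The muscle proteins nebulin (NEB, 323 to 412 FPKM) and desmin (DES, 912 to 2882 FPKM) were high in every library, whereas the skeletal muscle actin ACTA1 was listed at 0 in 4 of 6, so a listed 0 need not mean that RNA was missing. High altitude library 1 stood apart, with the highest summed slow fibre markers and the lowest summed fibroblast markers (246 FPKM, against 688 to 1067 in the other 5). In bulk muscle, fewer cells of a type and less RNA per cell cannot be told apart. Below, 3 values for a group are those of libraries 1, 2 and 3 in that order.

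Of the 53 members, 45 had 3 or more libraries with an FPKM of 1 or above and were tested. The other 8 stayed below that. DNAJC5B and DNAJC9 were listed at 0 in all 6 libraries, and HSPB9, DNAJC22, DNAJB13, DNAJC27, DNAJC6 and HSPA4L were at or below 0.742 FPKM in each library. The 6 most abundant members, HSPE1, HSPB8, HSP90AA1, HSPA1L, DNAJB4 and HSPA9, held 55.2% of all FPKM of the members. As a share of each library's FPKM total, the members together came to 0.202, 0.209 and 0.307% at high altitude, against 0.209, 0.247 and 0.189% in the lowland, so the groups overlapped and high altitude library 3 was the highest.

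The comparison asked how chaperone RNA differs in muscle between Tibetan pigs of the lowland and of the highland. HSPB8, a small heat shock protein, had a 1.61-fold higher mean at high altitude with no overlap between groups, while HSPB6, the other tested member of its class, overlapped fully. Of 6 tested cytosolic HSP70 and HSP110 genes 5 had a higher mean at high altitude. For HSPA1L, HSPA4, HSPA8 and HSPH1 the size of the difference rested largely on 1 animal, but the direction was the same without it. HSPA14 was not high in that animal. Summed over their members, reticulum and mitochondrial chaperones were at nearly equal levels, though single genes differed more. No member changed: of 10005 genes tested in limma with Benjamini-Hochberg adjustment, 0.23% had an adjusted p under 0.05, and of the 45 members 0 did. Changed means an adjusted p under 0.05 here and below, so a gene that did not change in this sense may still differ. An unadjusted p under 0.05 was found in 3 members (HSPB8, HSPBAP1 and DNAJB1), 6.67% of those tested, beside 9.42% of all tested genes. HSPBAP1 passed the filter on low values only through its low altitude libraries, since all 3 of its high altitude values lay below an FPKM of 1. It therefore had to differ, and neither its p nor its place in a count supports a difference. The smallest adjusted p of a member was 0.332.

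Groups did not overlap in 6 of the 45 members, 13.3%, beside 16.1% of all tested genes. HSPB8 and DNAJB1 were lower at low altitude in this sense (2 of 45, 4.44%, beside 4.8% of all tested genes). HSPBAP1, DNAJB12, DNAJC18 and DNAJC13 were higher (4 of 45, 8.89%, beside 11.3%), HSPBAP1 as the filter itself required. These shares are near or below those of all genes and give no result about chaperones as a group. With median-of-ratios scaling the split was 3 higher and 4 lower, 7 of 45 members, beside 17.2% of all tested genes. The median log2 fold change, low minus high altitude on the log2(FPKM + 1) scale, was -0.03 over the 45 members. Over all tested genes it was 0.04. Estimates lay below 0 in 25 members, 55.6%, beside 42.3% of all tested genes. Counts of estimates below 0 given further on for classes and lists are to be read beside that 42.3%. Counts above 0 are to be read beside the 5776 of 10005 tested genes with an estimate above 0.

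**Figure D1:**
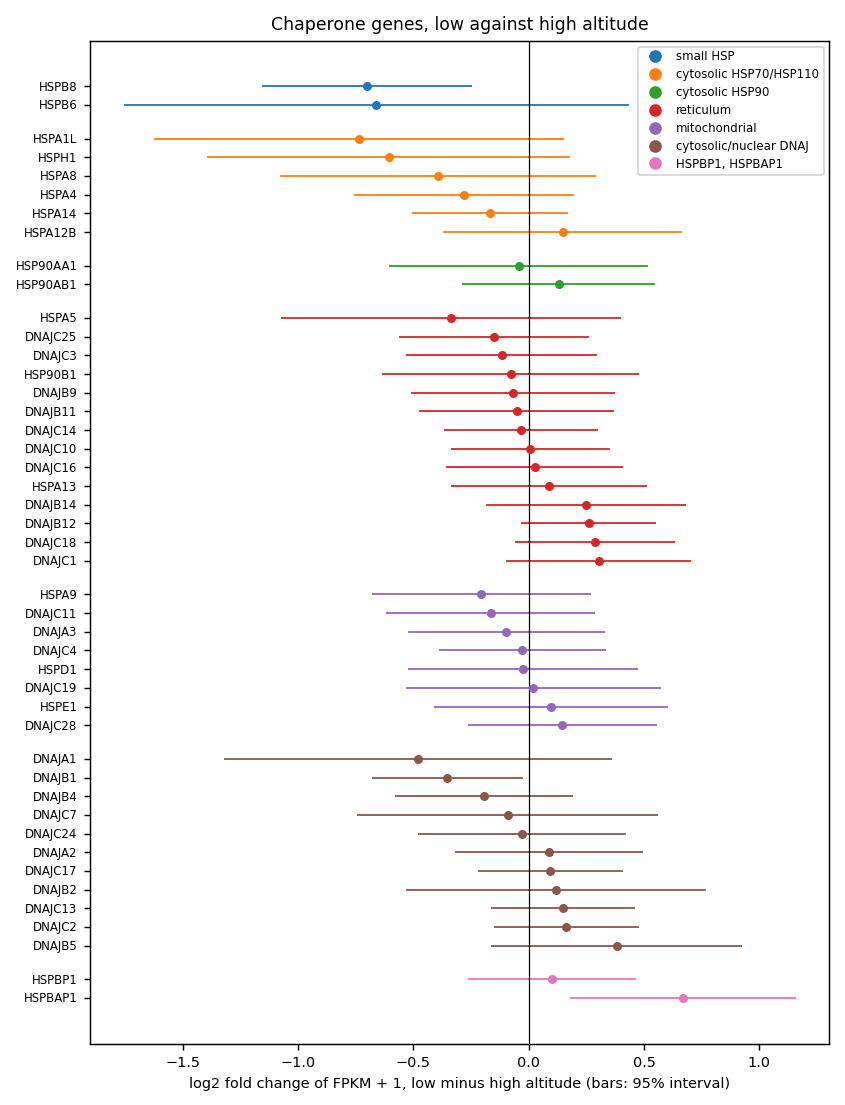
Log2 fold change of FPKM + 1 (x axis, low minus high altitude) with its 95% interval from limma for the 45 tested members, in blocks by class (colour). The intervals of HSPB8, DNAJB1 and HSPBAP1 leave out 0, before any adjustment for the number of genes tested; HSPBAP1 was tested only because its low altitude values reach an FPKM of 1.

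The small heat shock proteins HSPB6 and HSPB8 were the tested members of their class, and both had estimates below 0 (median log2 fold change -0.68). HSPB8 works with the cochaperone BAG3 to hand damaged sarcomere proteins to autophagy. Its FPKM was 177, 194 and 211 in the high altitude animals, against 94.0, 148 and 120 in the low altitude animals. Every high altitude animal lay above every low altitude animal, with a gap from 148 to 177. The means were 194 ± 17.0 (SD, n = 3) and 121 ± 26.9, and the fitted log2 fold change was -0.70 (SE 0.19, 95% interval -1.16 to -0.24, limma, unadjusted p = 0.00819, Benjamini-Hochberg adjusted p = 0.332). Over 18 other settings of the analysis this estimate ranged from -0.86 to -0.53, and the Benjamini-Hochberg adjusted p from limma was 0.188 to 0.726. Only the 3 other scalings could have made the groups of HSPB8 overlap, and they did not. BAG3, its partner, was at 52.3, 27.9 and 48.9 FPKM at high and 37.8, 39.3 and 48.9 FPKM at low altitude, so the partner's groups overlapped fully. The sum of 5 smooth muscle and pericyte markers, cells that also express small heat shock proteins, was 81.1 to 118 FPKM at high and 109 to 112 at low altitude, and its part in the result was not tested.

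HSPB6, also called HSP20, is a small heat shock protein of slow, cardiac and smooth muscle. It was at 55.5, 13.2 and 31.0 FPKM in the highland, against 15.1, 22.2 and 16.3 FPKM in the lowland. The highest and the lowest animal of the study were thus both in the high altitude group, and the log2 fold change of -0.66 had a wide interval, -1.76 to 0.43. The summed FPKM of the 4 of 8 slow fibre markers in the table (TNNT1, TNNI1, TNNC1 and MYL3) was 10493, 2751 and 6874 at high and 3126, 4707 and 3106 at low altitude. The libraries stood in nearly the same order for both, with high altitude library 1 first, high altitude library 3 next, then low altitude library 2, and high altitude library 2 last. HSPB8 did not share that order, since high altitude library 2, the lowest in slow fibre markers, was the next to highest for HSPB8. The part of fibre type in either result was not tested.

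**Figure D2:**
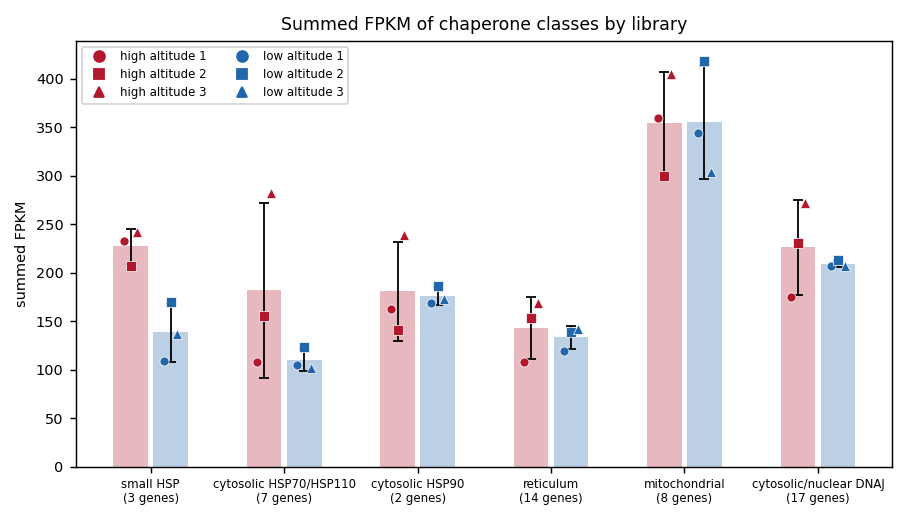
Summed FPKM (y axis) of each chaperone class by library, high altitude in red and low altitude in blue. Bars are means, whiskers are SD (n = 3) and symbols mark the library number; the groups are apart for small heat shock proteins, and high altitude library 3 stands above the others for cytosolic HSP70 and HSP90.

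Class sums hold only genes in the table. These were 3 of 8 genes listed for the small class and 7 of 12 for cytosolic HSP70 and HSP110. For mitochondria they were 8 of 10, and for cytosolic and nuclear DNAJ 17 of 27. As a summed level, the small class was at 233, 207 and 242 FPKM at high and 109, 170 and 137 FPKM at low altitude, which rests mostly on HSPB8. The cytosolic HSP70 and HSP110 class was at 108, 155 and 282 FPKM against 104, 123 and 102, a low over high ratio of 0.603. The ratio became 0.834 without high altitude library 3 and 0.501 without high altitude library 1. The summed reticulum level was 143 ± 31.8 (SD, n = 3) at high and 133 ± 12 FPKM at low altitude. The summed mitochondrial level was 355 ± 52.5 and 355 ± 58.3 FPKM. The groups' sums did not overlap in the small class and for HSPBP1 with HSPBAP1, and overlapped in the other 5 classes. For that pair the gap came from HSPBAP1, which was tested only through the group where it is high, as HSPBP1 alone overlapped.

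Among cytosolic HSP70 and HSP110 genes 5 of 6 tested members had estimates below 0, beside 42.3% of all tested genes. Their median log2 fold change was -0.34. None changed, and the smallest Benjamini-Hochberg adjusted p from limma was 0.604. HSPA1L was the most abundant, at 62.8, 109 and 198 FPKM at high altitude, against 64.7, 72.2 and 61.9 FPKM in the lowland. The low altitude animals lay close together, high altitude library 1 lay among them, and the other two high altitude animals lay above. HSPA1L lies beside HSP70.2, the pig counterpart of the stress-inducible HSPA1A and HSPA1B, in RefSeq's gene order on Sscrofa11.1. These genes are related in sequence, and the labels do not say how reads were shared out among them, so the level may belong in part to the inducible genes.

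HSPA8, the constitutive HSP70 of the cytosol, was at 19.8, 19.9 and 41.7 FPKM at high and 17.9, 21.6 and 18.1 FPKM at low altitude. HSPH1, the HSP110 that exchanges the nucleotide of HSP70, was at 5.46, 6.17 and 14.5 FPKM at high and 3.85, 5.50 and 5.41 FPKM at low altitude. HSPA4, another HSP110, was at 15.6, 14.7 and 22.1 FPKM against 13.1, 16.9 and 12.3. For each of these 3 genes high altitude library 3 was the highest of the 6 and the other high altitude animals lay within or close to the low altitude range. HSPA14, a ribosome-associated HSP70, ranged from 1.43 to 2.17 FPKM. HSPA12B, a distant HSP70 relative of endothelial cells, ranged from 1.92 to 4.17 FPKM and was lowest in high altitude library 1. That library also had the lowest sum of the 4 of 6 endothelial markers in the table (31.0 FPKM, against 38.7 to 54.9 in the other 5). The sum was mostly PECAM1. PECAM1 and TIE1 were lowest there, but KDR and TEK were not. The markers' mean log2(FPKM + 1) was 2.73 there and lower in low altitude libraries 1 and 3 (2.64 and 2.60). The part of endothelial cells was not tested.

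The cytosolic HSP90 pair had nearly equal means in both groups. HSP90AA1, the stress-inducible form that also serves myosin folding in muscle, was at 108, 104 and 186 FPKM at high and 118, 132 and 122 FPKM at low altitude. HSP90AB1, the constitutive form, was at 54.4, 37.1 and 52.0 FPKM against 50.5, 53.5 and 51.2. The inducible form was the more abundant in every library, by 1.98 to 3.59 times, and the ratio was 2.79 ± 0.802 (SD, n = 3) in the high and 2.40 ± 0.0688 in the low altitude animals. The log2 fold changes were -0.04 (95% interval -0.61 to 0.52) and 0.13 (-0.29 to 0.55).

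**Figure D3:**
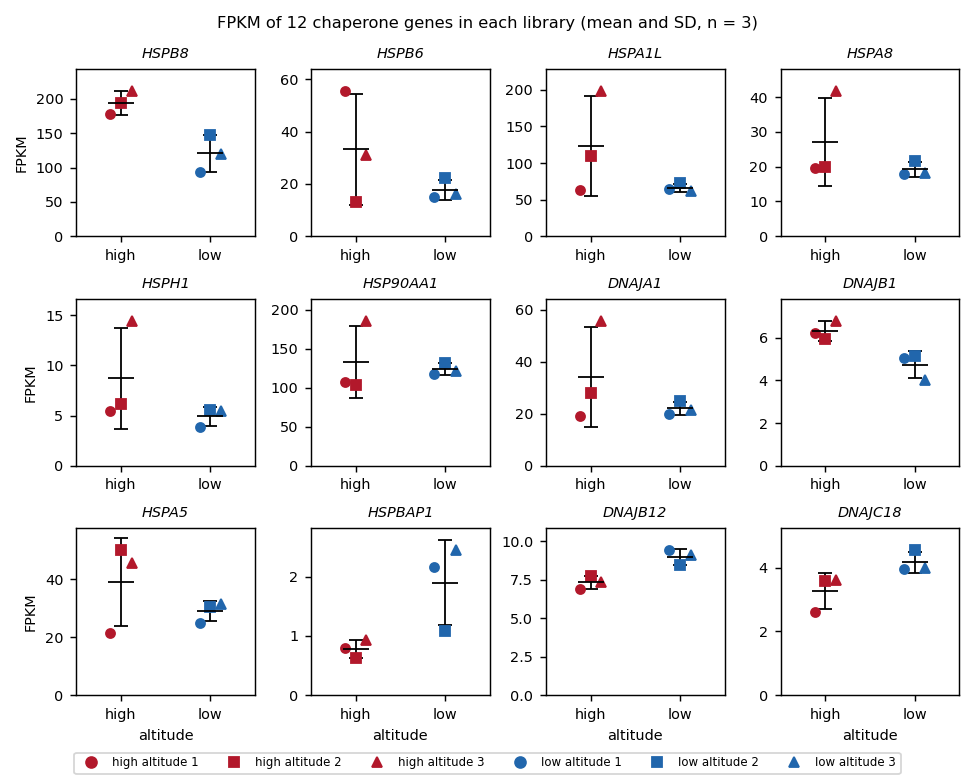
FPKM (y axis of each panel, from 0) of 12 members in each library, high altitude in red and low altitude in blue, with symbols for the library number and mean and SD (n = 3) in black. HSPB8, DNAJB1, HSPBAP1, DNAJB12 and DNAJC18 have groups apart; for HSPA1L, HSPA8, HSPH1, HSP90AA1 and DNAJA1 the triangle of high altitude library 3 lies above all other points.

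A single high altitude animal carried much of the cytosolic pattern, which was described after its values were seen. In high altitude library 3, 7 of the 45 tested members were at least 1.5 times the median of the other 5 libraries, 15.6%, beside 9.44% of all tested genes. They were HSPA1L (3.06 times), HSPH1 (2.65), DNAJA1 (2.61), HSPA8 (2.11), HSPB6 (1.90), HSP90AA1 (1.58) and HSPA4 (1.51), of which all but HSPB6 belong to the HSP70, HSP110, HSP90 and DNAJ families of the cytosol. The library was the highest of the 6 for 20 of 45 members, 44.4%, beside 24.3% of all tested genes. In the other high altitude libraries 1 and 2, 2 members each lay that far above the rest, beside 5.37 and 8.34% of all tested genes. In low altitude libraries 1, 2 and 3 it was 1, 2 and 2 members, beside 5.06, 7.36 and 7.94%. The count was 9 with libraries rescaled to a common total, beside 10.7% of all tested genes. It was 6 with quantile normalization and 5 with median-of-ratios scaling, beside 5.89 and 5.63%, and HSPA1L, HSPH1, DNAJA1, HSPA8 and HSPB6 were among them each time.

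Some cochaperones outside the members were also high in that animal. Of 17 tested cytosolic cochaperones, 2 were at least 1.5 times the median of the other 5 libraries there, beside 9.44% of all tested genes. The library was the highest of the 6 for 8 of the 17, beside 24.3% of all tested genes. The 2 were STIP1 and CHORDC1. STIP1, which links HSP70 to HSP90, was at 74.0 FPKM in high altitude library 3 and at 30.9 to 41.3 in the other 5 libraries, and CHORDC1, an HSP90 partner, at 12.1 against 4.36 to 7.55. All 7 tested subunits of TRiC, the ring-shaped chaperonin that folds actin and tubulin, had their highest level there, such as CCT4 at 50.8 FPKM against 32.7 to 39.9. HSF1 itself was at 22.6 FPKM against 12.3 to 19.7. The same library had the highest sum of the 3 of 5 erythroid markers in the table (163 FPKM against 57.0 to 117 in the other 5), nearly all of it HBB, with SLC4A1 at or near 0 in every library. It also had the highest sum of the 2 of 6 adipocyte markers, PLIN1 and CIDEC (22.0 FPKM against 3.88 to 13.5), and it was the deepest. The part of these in the chaperone levels was not tested. Without that library the log2 fold changes of HSPA1L, HSPH1, HSPA8 and DNAJA1 were -0.32, -0.21, -0.05 and -0.07, against -0.74, -0.61, -0.39 and -0.48 with it, and that of HSP90AA1 was 0.23 against -0.04. Leaving out high altitude library 1 instead moved estimates the other way. Those of HSPA1L, HSPH1, HSPA8 and HSP90AA1 were then -1.14, -0.84, -0.57 and -0.17.

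**Figure D4:**
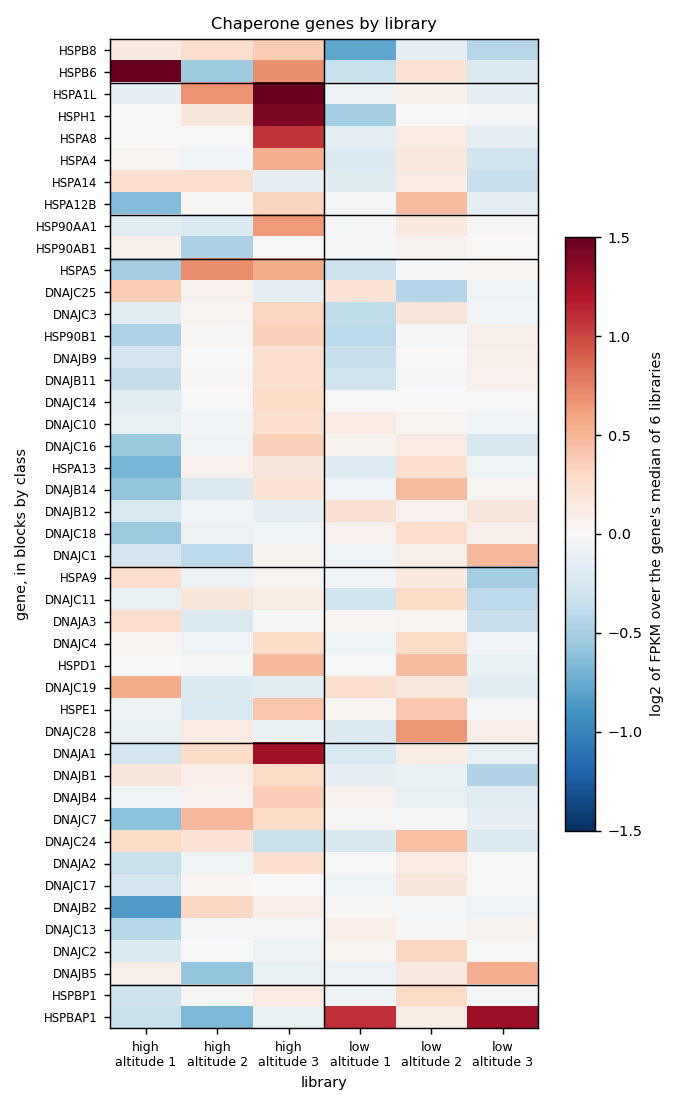
Log2 of FPKM over each gene's median of the 6 libraries (colour) for the 45 tested members (rows, in blocks by class) in each library (columns). The column of high altitude library 3 is reddest among HSP70 and HSP110 genes, HSP90AA1 and DNAJA1, and HSPBAP1 is red in low altitude libraries 1 and 3.

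DNAJ proteins of the cytosol and nucleus choose clients for HSP70 and start its ATPase. Of 17 members in this class 11 were tested, 6 with estimates above 0 and 5 below (median log2 fold change 0.09). DNAJB1, the inducible partner of HSP70 in refolding and disaggregation, was at 6.21, 5.92 and 6.80 FPKM at high and 5.06, 5.14 and 4.02 FPKM at low altitude. Its groups did not overlap, and it was 1.33-fold higher at high altitude (log2 fold change -0.35, SE 0.14, 95% interval -0.68 to -0.03, limma, unadjusted p = 0.0380, Benjamini-Hochberg adjusted p = 0.495). Unlike DNAJA1, the other main partner, DNAJB1 was not set by 1 animal, as its estimate stayed between -0.41 and -0.26 over 18 other settings. DNAJA1 was at 19.0, 27.9 and 55.8 FPKM at high and 19.8, 24.9 and 21.4 FPKM at low altitude.

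DNAJB4, the most abundant DNAJ gene and one whose loss causes muscle disease, was at 51.8, 56.7 and 70.1 FPKM at high and 56.5, 49.9 and 48.2 FPKM at low altitude. DNAJB5, a relative with a role in redox control of gene expression in heart, was at 26.2, 16.3 and 22.7 FPKM against 23.0, 26.9 and 35.8. DNAJC7, which carries clients between HSP70 and HSP90, was at 29.6, 63.8 and 54.9 FPKM against 45.9, 44.9 and 41.7. In DNAJC7 the high altitude group again held both the highest and the lowest animal. DNAJB2, a sorting chaperone that sends clients to the proteasome, did the same, at 10.6, 23.6 and 20.5 FPKM against 19.4, 18.8 and 18.5. DNAJC2, which acts at the ribosome, ranged from 3.40 to 4.88 FPKM in all libraries. DNAJC13, an endosomal protein named because its groups did not overlap, was at 2.01, 2.68 and 2.66 FPKM against 2.90, 2.73 and 2.79, so the groups were barely apart.

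In the endoplasmic reticulum all 14 members were tested, and estimates were split evenly, 7 above and 7 below 0 (median log2 fold change -0.01). HSPA5, also called BiP, the HSP70 of the reticulum, was at 21.6, 50.2 and 45.6 FPKM at high and 25.0, 30.5 and 31.7 FPKM at low altitude. The low altitude animals lay between the lowest and the other two of the high altitude group. XBP1, the factor that induces such genes, was at 24.3, 52.9 and 44.4 FPKM at high and 27.8, 30.0 and 29.7 FPKM at low altitude, which puts the libraries in the order of HSPA5 except for low altitude libraries 2 and 3. HSP90B1, the HSP90 of the reticulum, was at 19.6, 27.3 and 34.8 FPKM against 20.5, 26.8 and 28.7. It was lowest in high altitude library 1 and highest in library 3, whereas HSPA5 and XBP1 were highest in library 2. DNAJB9, a partner of HSPA5 that restrains the stress sensor IRE1, was between 2.83 and 3.05 times DNAJB11 in every library, with levels of 16.6, 20.1 and 24.0 FPKM at high and 15.9, 20.4 and 21.3 FPKM at low altitude.

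The reticulum members with estimates furthest above 0 were DNAJC1, DNAJC18, DNAJB12 and DNAJB14. The other DNAJ genes of the class lay near or below 0, with log2 fold changes of -0.15 (DNAJC25), -0.12 (DNAJC3), -0.07 (DNAJB9), -0.05 (DNAJB11), -0.03 (DNAJC14), 0.01 (DNAJC10) and 0.03 (DNAJC16). DNAJB12, which helps clear misfolded membrane proteins, was at 6.90, 7.72 and 7.37 FPKM at high and 9.42, 8.42 and 9.09 FPKM at low altitude. DNAJC18 was at 2.61, 3.57 and 3.62 FPKM against 3.97, 4.56 and 4.0. The groups did not overlap in either gene, by a fold of 1.22 and 1.28, and neither changed (limma, Benjamini-Hochberg adjusted p = 0.575 and 0.604). With median-of-ratios scaling and with quantile normalization the groups of DNAJB12 did overlap. DNAJB14, the close relative of DNAJB12, was at 1.70, 2.19 and 2.94 FPKM against 2.47, 3.53 and 2.63, and DNAJC1 at 3.34, 3.08 and 4.23 FPKM against 3.90, 4.31 and 5.69. Both overlapped between groups. DNAJB12, DNAJC18, DNAJB14 and DNAJC1 had their lowest or next to lowest value in high altitude library 1. That library was the lowest of the 6 for 43% of all tested genes and 42.2% of the members.

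Among the genes in the table, mitochondrial chaperones had the highest summed level of the classes, 29.0% of the members' FPKM. Genes of other classes that are missing from the table could alter this ranking. The groups overlapped for all 8 tested mitochondrial members. HSPD1 forms the folding chamber of the mitochondrial matrix and HSPE1 its lid. HSPE1 was at 162, 147 and 229 FPKM at high and 175, 227 and 168 FPKM at low altitude, and HSPD1 at 31.1, 30.9 and 43.7 against 31.6, 43.1 and 29.3. Both peaked in 1 animal of each group, library 3 at high and library 2 at low altitude. Their ratio stayed between 4.75 and 5.72 in all libraries, and the genes are next to each other in RefSeq's gene order, where the mammalian pair is known to share a promoter. The log2 fold changes were 0.10 for HSPE1 (95% interval -0.41 to 0.60) and -0.02 for HSPD1 (-0.52 to 0.47).

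HSPA9, also called mortalin, the HSP70 that pulls proteins into the matrix, was at 65.2, 51.4 and 56.0 FPKM at high and 52.8, 60.0 and 38.3 FPKM at low altitude. DNAJA3, its partner in the matrix, was at 24.1, 17.3 and 19.7 FPKM against 20.5, 20.7 and 15.7. DNAJC19, a J protein of the inner membrane at the import motor, was at 60.7, 35.9 and 36.8 FPKM against 48.8, 46.1 and 37.2. All 3 were highest in high altitude library 1, the library with the highest summed slow fibre markers. DNAJC11, of the membrane contact complex, ranged from 6.13 to 9.85 FPKM and DNAJC28 from 1.46 to 2.70 FPKM.

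**Figure D5:**
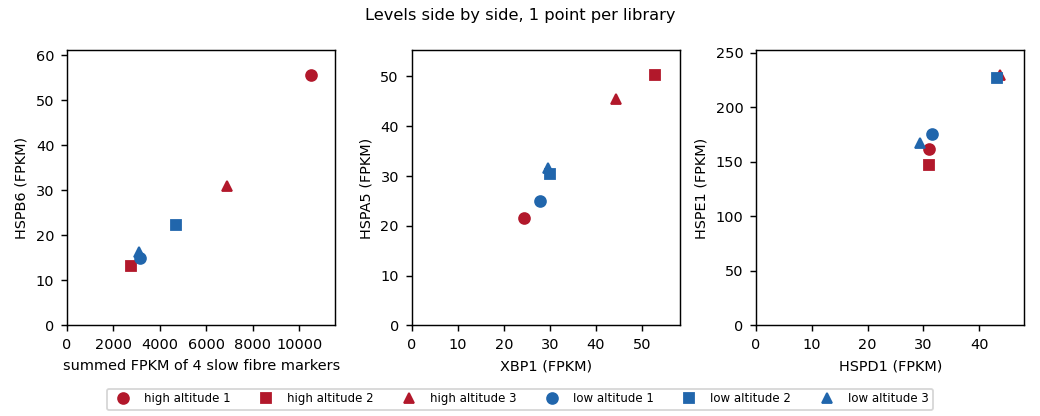
Levels side by side, 1 point per library (high altitude red, low altitude blue, symbols for the library number): HSPB6 against the summed FPKM of 4 slow fibre markers, HSPA5 against XBP1, and HSPE1 against HSPD1, all in FPKM. In each panel the points climb together across both groups, with 6 libraries and no test.

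The other 2 members bear the prefix HSPB by name but are no small heat shock proteins. HSPBAP1, which binds HSPB1, was at 0.796, 0.629 and 0.932 FPKM at high and 2.15, 1.09 and 2.45 FPKM at low altitude. Every low altitude animal lay above every high altitude animal, with low altitude library 2 near the high altitude range. The mean was 2.41-fold higher at low altitude (log2 fold change 0.67, SE 0.21, Benjamini-Hochberg adjusted p from limma = 0.384). These values are a description, because the gene was tested only through the group where it is high. At levels near an FPKM of 1 the log2(FPKM + 1) scale understates a change, and with a pseudocount of 0.1 the median of the pair was 0.62 in place of 0.38. HSPBP1, a nucleotide exchange factor of HSP70, was at 3.58, 4.50 and 4.82 FPKM against 4.20, 5.44 and 4.38.

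The wider folding pathway was read from 6 lists, with 53 of their 82 genes in the table and 48 tested. In the limma fit 0 of 48 changed with Benjamini-Hochberg adjustment, beside 0.23% of all tested genes. An unadjusted p under 0.05 was found for 2 of 48, PPP1R15A and ST13, beside 9.42% of all tested genes. PPP1R15A, the phosphatase subunit that ends the translation block of the stress response, was at 3.48, 6.52 and 5.30 FPKM at high and 9.46, 12.1 and 22.8 FPKM at low altitude. ST13, an HSP70 cochaperone, was at 63.8, 61.9 and 72.3 FPKM against 85.8, 82.1 and 85.4. The groups did not overlap in either, and both were higher at low altitude, with log2 fold changes of 1.32 and 0.35 (limma, Benjamini-Hochberg adjusted p = 0.302 and 0.479).

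Of the heat shock factors, HSF1 was at 17.1, 12.3 and 22.6 FPKM at high and 18.9, 19.7 and 18.6 FPKM at low altitude, and HSF2 ranged from 4.03 to 6.01 FPKM, with overlapping groups for both. Of 17 tested cytosolic cochaperones 12 had estimates above 0, among them UNC45B, which folds myosin with HSP90, at 63.3, 40.9 and 56.0 FPKM against 61.8, 61.8 and 89.0. Of 16 tested genes of reticulum folding and its stress response 6 had estimates above 0. The oxidase ERO1A was lower at low altitude without overlap (3.69, 3.57 and 4.61 FPKM against 2.71, 3.57 and 3.15), by a margin that does not show at this rounding. All 6 tested genes of mitochondrial folding and proteolysis had estimates below 0 by small amounts (median log2 fold change -0.10), such as GRPEL2, the exchange factor of HSPA9, at 4.20, 6.26 and 4.75 FPKM against 3.97, 4.42 and 3.67, and the mitochondrial HSP90 TRAP1, at 15.2, 12.2 and 13.3 FPKM against 11.8, 15.1 and 11.2. Groups overlapped for all 6. Of the TRiC subunits 3 of 7 had estimates above 0, with none over 0.16.

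The spread between animals was itself uneven. The SD of log2(FPKM + 1) was larger at high than at low altitude in 30 of 45 members, 66.7%, and in 65.3% of all tested genes. The members' share was thus like that of all genes. Cytosolic HSP70 and HSP110 genes had a median SD of 0.48 at high and 0.19 at low altitude, and mitochondrial chaperones 0.20 and 0.26.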

How the data were processed

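Per the labels' protocols, muscle was snap-frozen, TRIzol was used to extract total RNA, and an Illumina TruSeq kit with dUTP gave strand-specific libraries. The authors deposited FPKM values for 25322 Ensembl pig gene IDs in 6 libraries, 1 per animal. TopHat2 2.0.11 and Cufflinks 2.2.1 are named in the submitters' processing notes with no role, and genome build, annotation and any filters were not given in the sources used here. A count model needs counts, which FPKM lacks, so none was fitted. A table of gene IDs and names gave symbols to 11804 IDs; of its 65 member IDs 53 are rows of the table and the other 12 are not analysed here. No sequence is printed, as no sequence table was used here.

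The scale was log2(FPKM + 1), so the pseudocount was 1. Genes at 1 FPKM or above in 3 or more libraries were fitted with limma 3.58.1 in R 4.3.3 (empirical Bayes with trend, two-sided), low minus high altitude, Benjamini-Hochberg adjustment over 10005 genes and a threshold of 0.05. The steps were tested on simulated data. Figures used matplotlib 3.10.9. The members, classes and lists were chosen with earlier results of these data known. Named genes were, per class, the 4 tested members with the smallest unadjusted p and the 3 most abundant (all for small heat shock proteins and HSP90), and up to 3 per pathway list; other members are named for completeness or after their values were seen. Class membership follows textbook location. The pathway lists were heat shock factors, cytosolic cochaperones, other small heat shock proteins (0 of 2 in the table), TRiC, reticulum folding and stress response, and mitochondrial folding.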

Additional observations from a re-analysis of the deposited data

How the results depend on the processing

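The settings tried were smaller pseudocounts (0.1, 0.5), the filter left out or set to a mean FPKM of 5, 3 other scalings, limma without trend, with a robust fit or with array weights, a replicate block, dropping 107 genes that had both a listed 0 and an FPKM of 5 or more (0 of them members), and leaving out each library in turn. In each of these 18 settings 0 members and 0 pathway genes changed in limma, while over all genes 4 to 38 did. With the replicate number as a block the count of changed members was 0 too, and over all genes it was 19 against 23. The numbers are not stated to pair animals, same-numbered animals' deviations correlated by -0.02, 0.09 and -0.14, and not every library correlated best with its own number. Members without overlap numbered 3 with that stricter filter, where 30 members were tested (beside 16.7% of all genes under that filter), and 7 to 15 when a library was left out, where fewer animals are compared (22.8 to 32.3% of all tested genes): 15 without the first high altitude animal, 13 without the third one, and 11 without the low altitude animal numbered 2. The median of HSPBAP1 and HSPBP1 was 0.62 with a pseudocount of 0.1, which by construction shrinks changes near an FPKM of 1 less than a pseudocount of 1 does. Every other class median and class sum moved by less than the spread between animals, taken as the larger group SD (relative to the mean for sums). That spread is wide where 1 animal stands apart, so this cannot show that a value is stable. Without high altitude library 3 the HSP70 and HSP110 median was -0.16 in place of -0.34. The cytosolic and nuclear DNAJ median changed sign, from 0.09 to -0.09, with the filter at a mean FPKM of 5. No named gene passed the threshold in any setting. The count of members high in high altitude library 3 and its 3 rescaled forms were chosen after the data were seen. With 3 animals a group, small differences could not be detected, and large ones could be missed too. PPP1R15A, with a 2.90-fold higher mean at low altitude and no overlap, had a Benjamini-Hochberg adjusted p of 0.302 in limma.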
